A study of Arabidopsis thaliana with 5 samples.

Results

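Regions of the Arabidopsis thaliana genome where TREE1 was called in air and in exactly 1 of 2 ethylene libraries were examined, to see what separates those shared with ethylene library 1 from those shared with ethylene library 2. Peaks of the 3 lists on the 5 nuclear chromosomes were joined wherever they had at least 1 bp in common, which gave 13729 regions. Of these, 2185 (15.9%) met the rule. Air was joined by ethylene library 1 alone in 987 of them (7.19% of all regions) and by ethylene library 2 alone in 1198 (8.73%). For comparison, 4850 regions held peaks of all 3 libraries and 1536 a peak of the air library only. The members were thus selected on the peak calls themselves, so membership, scores, fold enrichments, tags, lengths and summit distances are given as descriptions. Location and nearby genes were not used by the rule.

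Chromatin immunoprecipitation sequencing (ChIP-seq) was done with an antibody against green fluorescent protein (GFP) on 1 line, labelled pTREE1:TREE-GFP in its genotype and TREE1p::TREE1-GFP in its sample titles, so the tagged protein is driven by the TREE1 promoter in every library. Ethylene libraries 1 and 2 and the single air library came from shoot tissue of 3-day-old dark-grown seedlings. The seedlings had spent 4 h in hydrocarbon-free air with 10 ppm ethylene or in hydrocarbon-free air alone. Whether the ethylene replicates were separate batches of seedlings is not given in the labels, so they may be technical, and no untagged line is described.

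Ethylene is a gaseous plant hormone that shortens dark-grown shoots. Its signal stabilises the transcription factor EIN3, and the series title places TREE1 beside EIN3 in gene repression. A ChIP-seq peak marks a stretch where more fragments were recovered than in input DNA, and its summit is the position where the fragments pile up highest. A library with no listed peak at a region is not shown to have had no TREE1 there. Its signal may lie just under the calling threshold, and the lists give no value for it.

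After removal of duplicate reads, 5884897 tags were kept in ethylene library 1, 9459860 in ethylene library 2 and 9325092 in air. The lists held 9156, 9958 and 8602 peaks in that order of libraries. Ethylene library 1 was thus the shallowest. The 2 sub-classes differ in which ethylene replicate made the call, not in treatment, and no test over samples was possible. The 95% intervals below cover counting error among regions only, and they were not adjusted for the 14 shares compared between the sub-classes.

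The members were mostly weak peaks in both of their libraries. The deposited score is 10 times the negative log10 of the peak's p-value, and the lists start at a score of 50. In the regions of air with ethylene library 1 the median score was 75.3 in ethylene library 1 and 72.5 in air. In the regions of air with ethylene library 2 it was 76.8 in ethylene library 2 and 72.6 in air. The regions of all 3 libraries had median scores of 107 in ethylene library 1, 114 in ethylene library 2 and 99.8 in air. Peaks found in a single library had medians of 64.5, 67.7 and 64.7 in the same order. Members therefore stood between the peaks of all 3 libraries and the peaks of a single library.

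The share of air regions that belonged to the members was lower in each higher bin of air score. Members made up 34.2% of the 1680 air regions with a score of 50 to 60 and 7.07% of the 1203 air regions with a score of 150 or more. The regions of all 3 libraries made up 31.0% and 90.9% of the same bins. Few members were among the strongest peaks: of the 501 highest by fold enrichment in ethylene library 1, 15 lay in regions of air with that library, and of the 502 highest in ethylene library 2, 14 did. In air, 20 and 27 of the 504 highest fell in the sub-class of ethylene library 1 and in that of ethylene library 2.

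**Figure D1:**
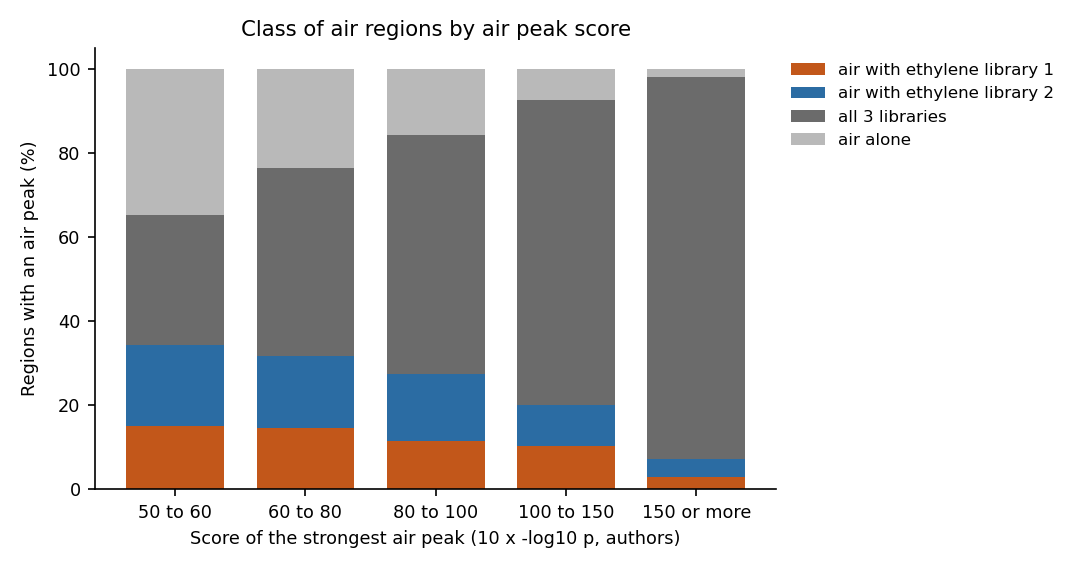
Share of the regions with an air peak (vertical axis, %) that fell in each class, by the deposited score of the strongest air peak (horizontal axis, 10 times the negative log10 of p). The 2 member classes together take 34.2% of the lowest bin and 7.07% of the highest, where regions of all 3 libraries take 90.9%.

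The fold enrichment over local background had a median of 3.79 in ethylene library 1 and 3.04 in air for the regions of air with ethylene library 1. For the regions of air with ethylene library 2 it was 3.26 in ethylene library 2 and 3.01 in air. The whole lists had median folds of 3.99 in ethylene library 1, 3.39 in ethylene library 2 and 3.11 in air. The members thus lay a little under the median of each list. Nearly all were simple overlaps, since 979 of 987 regions with ethylene library 1 and 1179 of 1198 with ethylene library 2 held 1 peak of each library. The median region was 649 bp long with ethylene library 1 and 646.5 bp long with ethylene library 2. Air peaks were the longer of the 2 in 92.2% and 90.1% of the regions in that order.

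The summits of the ethylene and air peaks lay a median of 58 bp apart with ethylene library 1 and 63 bp apart with ethylene library 2. The summits were within 100 bp of each other in 70.0% and 68.5% of the regions of these sub-classes. In the regions of all 3 libraries the medians were 55 bp for ethylene library 1 against air and 57 bp for ethylene library 2 against air. The members' summits were thus about as close together as those of the regions called in every library.

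Tags per bp, the tags of a peak divided by its length, had a median of 0.149 in ethylene library 1 and 0.209 in air for the regions with ethylene library 1. They had a median of 0.207 in ethylene library 2 and 0.204 in air for the regions with ethylene library 2. Expressed as tags per kb and per 1000000 kept tags, the density was 25.3 in ethylene library 1 and 22.4 in air for the first of these sub-classes. It was 21.8 in ethylene library 2 and 21.9 in air for the other. The ethylene density over the air density, both scaled, had a median of 1.14 with ethylene library 1 and 1.00 with ethylene library 2. In the regions of all 3 libraries the same ratio was 1.13 for ethylene library 1 and 0.994 for ethylene library 2. Each ethylene library thus stood to air among the members as it did where all 3 libraries had peaks. Fragment sizes modelled by the peak caller were 71, 62 and 79 bp in ethylene libraries 1 and 2 and air, and their part in this was not tested.

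More of the regions with ethylene library 1 than of those with ethylene library 2 held dense peaks. A density above 0.3 tags per bp in either library was found in 28 of 987 regions with ethylene library 1 and in 2 of 1198 with ethylene library 2. In air, the library common to both sub-classes, 25 and 2 regions passed this limit in the same order. The limit was not scaled for depth. Regions above it were not counted in the other classes, so no share over all regions can be set beside these counts. Above 1 tag per bp there were 3 regions in the ethylene library 1 sub-class and 0 in the ethylene library 2 sub-class. Such density was not limited to members: the densest ethylene library 1 peak had 1.55 tags per bp in the regions of all 3 libraries and 1.58 in those of ethylene library 1 alone, and the densest peak of ethylene library 2 alone had 1.55. Of the 28 dense regions, 12 had an air summit within 1000 bp of a pseudogene record, meaning any record that the gene annotation types as a pseudogene. What kind of sequence each such record holds was not examined. The densest was chr2:3494816-3502216, with 11391 tags in ethylene library 1 and 12285 in air, or 1.54 and 1.66 tags per bp. It was also the longest member, and its fold was only 2.50 in ethylene library 1 and 1.71 in air, the lowest air fold of its sub-class. Its air summit lay within 1000 bp of 3 tRNA records, AT2G07762, AT2G07763 and AT2G07764. The next densest lay beside AT3G20362, with 1.29 tags per bp in ethylene library 1 and 1.25 in air at a fold of 2.41 and 2.07. How reads that match several places were treated is not given in the sources used here, so counts at pseudogenes and repeated genes are uncertain.

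**Figure D2:**
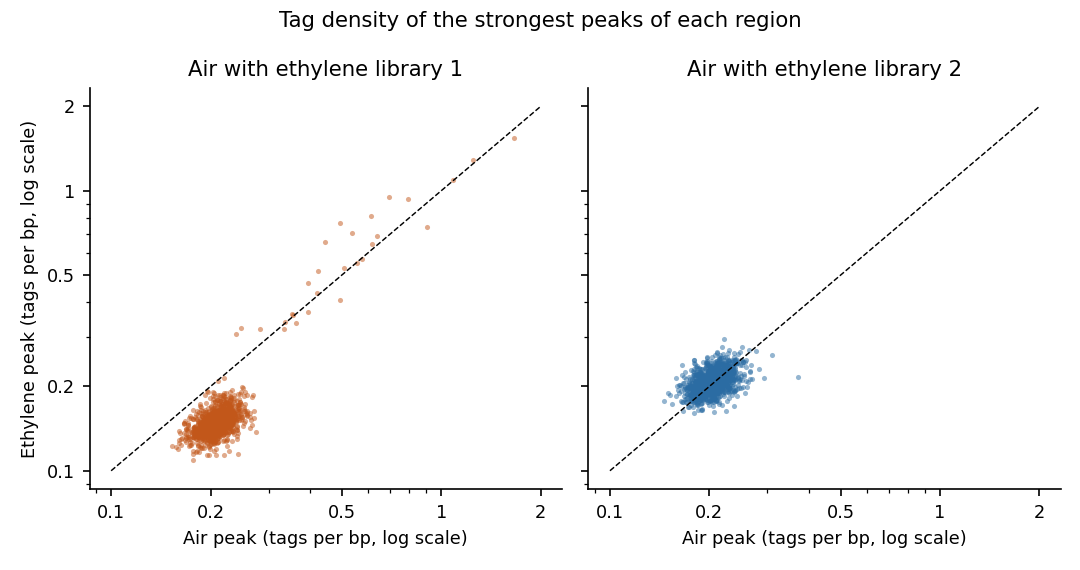
Tags per bp of the strongest ethylene peak (vertical axis, log scale) against that of the strongest air peak (horizontal axis, log scale) in each region, with ethylene library 1 on the left (987 regions) and ethylene library 2 on the right (1198 regions); the dashed line marks equal density. The left panel has a tail of 28 dense regions near the line, and the main cloud lies under the line in the panel of the shallower ethylene library 1.

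Members differed from the regions of all 3 libraries in where they lay, and less from the regions as a whole. Of all 13729 regions, 38.3% had the summit inside a protein-coding gene and 50.1% had it up to 1000 bp outside. An ethylene summit was used there where air had none. The air summit was inside a protein-coding gene in 40.5% of the 2185 members (95% interval 38.5 to 42.6%), in 33.8% of the regions of all 3 libraries and in 45.8% of the regions of air alone. The members thus exceeded the regions of all 3 libraries by 6.75 percentage points (4.31 to 9.21) and differed from those of air alone by -5.33 points (-8.56 to -2.10). In the zone up to 1000 bp outside a coding gene lay 47.4% of the members and 55.1% of the regions of all 3 libraries, a difference of -7.68 points (-10.2 to -5.16). Air scores differed between these classes too, as given above, and the part of peak strength in the difference of location was not tested. Classes were also rebuilt from only those peaks with a score of at least 100. In these classes, 32.4% of summits with ethylene library 1 and 33.1% with ethylene library 2 were inside coding genes. The score limit also lowered the number of regions to 340 and 474 in the same order. These regions are not a subset of the members, since a region could enter once a weaker peak of the other ethylene library was left out. The share for regions of all 3 libraries was not recomputed at that score.

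Between the sub-classes, the share inside coding genes was 39.7% (36.7 to 42.8) with ethylene library 1 and 41.2% (38.4 to 44.0) with ethylene library 2. The difference of -1.44 points had an interval of -5.55 to 2.70, which includes 0. The sub-classes parted outside genes. Up to 1000 bp outside lay 51.2% of summits with ethylene library 1, against 44.3% with ethylene library 2, a difference of 6.84 points (2.63 to 11.0). Farther away, outside any other gene record, lay 7.40% (5.92 to 9.20) with ethylene library 1, against 12.7% (10.9 to 14.7) with ethylene library 2, a difference of -5.29 points (-7.78 to -2.77). The interval for the 1000 bp zone took in 0 when peaks needed a score of 100 (6.29 points, -0.634 to 13.1) and when the zone was 2000 bp wide (4.05 points, -0.147 to 8.22).

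**Figure D3:**
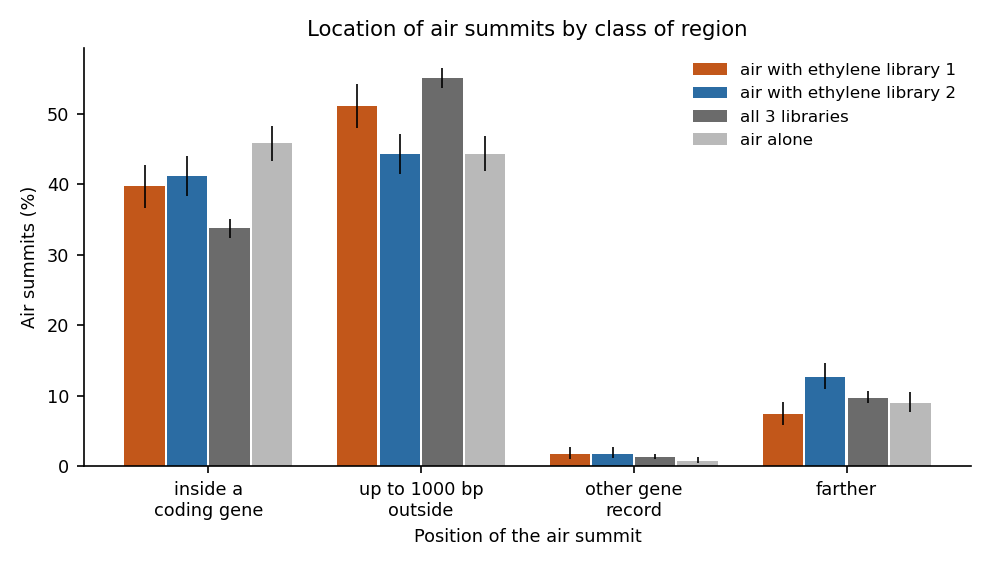
Share of air summits (vertical axis, %) by position for the 2 member classes, for regions of all 3 libraries and for regions of air alone; bars show the share and lines its 95% Wilson interval over regions. The share farther than 1000 bp and in no other gene record is 7.40% with ethylene library 1 and 12.7% with ethylene library 2.

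In percentage points the contrast was greatest close to the genes. From 1 to 200 bp outside a coding gene lay 36.2% of summits with ethylene library 1, against 27.0% with ethylene library 2, a difference of 9.21 points (5.30 to 13.1). From 200 to 500 bp the shares were 8.11% and 8.51% in the same order, and the difference of -0.41 points had an interval that includes 0 (-2.72 to 1.96). Beyond 2000 bp lay 3.65% with ethylene library 1, against 6.26% with ethylene library 2, a difference of -2.61 points (-4.43 to -0.774). Among summits outside coding genes, the median distance to the nearest one was 135 bp with ethylene library 1 and 267 bp with ethylene library 2, beside 175 bp for regions of all 3 libraries.

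The same contrast was seen in peaks without any air partner. Summits found in ethylene library 1 alone (1535 regions) lay 1 to 200 bp outside a coding gene in 35.4% of cases and those of ethylene library 2 alone (2078 regions) in 24.0%, a difference of 11.4 points (8.40 to 14.4). Farther than 1000 bp, outside other gene records, lay 9.32% in ethylene library 1 alone and 14.7% in ethylene library 2 alone, a difference of -5.36 points (-7.45 to -3.23). Beyond 2000 bp lay 3.84% of summits of ethylene library 1 alone and 6.35% of those of ethylene library 2 alone, a difference of -2.51 points (-3.93 to -1.05). These differences had the same direction and similar size as those between the sub-classes. The ethylene libraries differ in depth and in all else that sets the replicates apart, and these cannot be told apart here.

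**Figure D4:**
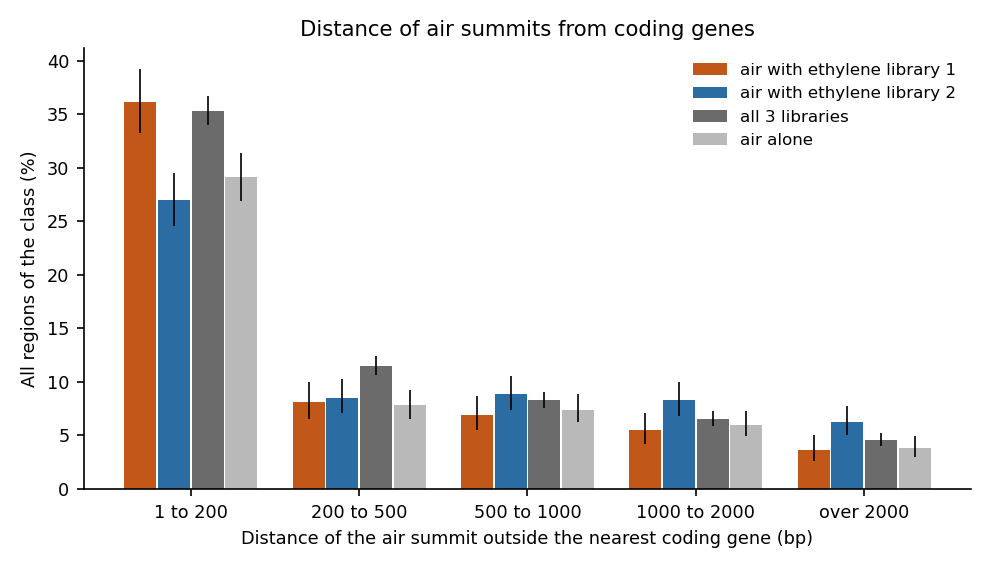
Share of all regions of a class (vertical axis, %) whose air summit lay at a given distance outside the nearest coding gene (horizontal axis, bp); lines are 95% Wilson intervals over regions. From 1 to 200 bp the bar of air with ethylene library 1 stands at 36.2% and that of air with ethylene library 2 at 27.0%, and beyond 2000 bp the order is reversed at 3.65% and 6.26%.

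The sub-classes were spread over the genome. Over the 5 chromosomes, regions with ethylene library 1 made up 6.44% to 7.63% of all regions and regions with ethylene library 2 made up 8.28% to 9.50%. The nearest peak of the ethylene library that was missing lay a median of 3660 bp away from regions of air with ethylene library 1 and 3081.5 bp away from regions of air with ethylene library 2. It was within 1000 bp of 155 regions (15.7%) with ethylene library 1 and of 245 (20.5%) with ethylene library 2. For most members the missing library thus had no peak within 1000 bp. It did have a peak within 10000 bp of 85.1% of regions with ethylene library 1 and of 86.5% with ethylene library 2. A region of any class had its edge within 1000 bp of 225 regions (22.8%) with ethylene library 1 and of 407 (34.0%) with ethylene library 2.

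At the edge of the rule, among regions with 1 peak of each library, the smallest overlap was 33 bp with ethylene library 1, at EMB2758 (chr4:16292692-16293898), and 18 bp with ethylene library 2, at AT5G48190 (chr5:19541676-19542681). The nearest misses were GH9B7 (chr1:28419743-28420813), a member of a cellulase family, where a peak of ethylene library 2 lay 11 bp away, and chr5:26355904-26356443, where a peak of ethylene library 1 lay 30 bp away. At GH9B7 the score was 109 in ethylene library 1 and 178 in air. At the chromosome 5 region it was 51.0 in ethylene library 2 and 54.0 in air.

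Noncoding gene records near the members were counted next, and these counts were singled out after their values had been seen. Small nucleolar and small nuclear RNA genes, which encode RNAs that guide RNA modification or splice messages, lay within 1000 bp of the air summit in 15 regions (1.52%) with ethylene library 1 and in 2 (0.167%) with ethylene library 2. The difference was 1.35 points (0.612 to 2.33). In other classes the share was 1.11% of regions of all 3 libraries (0.854 to 1.45), 0.977% of those of air alone, 1.37% of those of ethylene library 1 alone and 1.06% of those of ethylene library 2 alone. The share with ethylene library 1 was thus near that of the other classes, and the share with ethylene library 2 was the low value. Among the 15 were the spliceosomal RNA genes U5.6, U12, U2.10 and U2.16, and 1 of the 2 lay by U4.3p and U1.13p. At U2.16 the peak had 150 tags in ethylene library 1 and 117 in air, at a fold of 3.90 and 2.85. A cluster of 5 small nucleolar RNA records on chromosome 1 (chr1:10308089-10308708) had 70 tags in ethylene library 1 and 136 in air, at a fold of 3.96 and 4.09. Between the regions of a single ethylene library, with 21 for ethylene library 1 and 22 for ethylene library 2, the difference of 0.309 points had an interval that includes 0 (-0.407 to 1.11).

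Pseudogene records lay within 1000 bp in 54 regions (5.47%) with ethylene library 1, against 29 (2.42%) with ethylene library 2, a difference of 3.05 points (1.43 to 4.81). The share was 2.60% in regions of all 3 libraries, 3.13% in those of air alone, 4.23% in those of ethylene library 1 alone and 2.84% in those of ethylene library 2 alone. Both groups of regions tied to ethylene library 1 without library 2 thus had the higher shares. Without the dense regions 42 of 959 (4.38%) remained with ethylene library 1, beside 29 of 1196 (2.42%) with ethylene library 2. In regions of a single ethylene library the difference was 1.395 points (0.188 to 2.69).

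Transfer RNA genes were near 19 regions (1.93%) with ethylene library 1 and near 34 (2.84%) with ethylene library 2, and the difference of -0.91 points had an interval of -2.21 to 0.417. Members as a whole had tRNA genes nearby less often than the regions of all 3 libraries, with 2.43% against 5.42%, a difference of -3.00 points (-3.88 to -2.05). The share was 1.63% in regions of air alone, and the members' difference from it of 0.798 points had an interval that includes 0 (-0.153 to 1.70). It was 1.37% in regions of ethylene library 1 alone and 1.06% in those of ethylene library 2 alone. The regions of all 3 libraries thus had the high value. By the tRNA genes AT1G53220 and AT1G69130 a region of each sub-class lay on the same locus. At AT1G53220 the fold was 3.24 in ethylene library 1 and 3.51 in air over chr1:19847600-19848257, and 2.78 in ethylene library 2 and 4.12 in air over chr1:19848304-19848911. Each region there lacked a peak of the other ethylene library by the rule, although the 2 regions were neighbours.

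MicroRNA genes were near 5 regions with ethylene library 1 (MIR825, MIR827, MIR8182, MIR447a and MIR780) and near 9 with ethylene library 2 (MIR8166, MIR157d, MIR5652, MIR405a, MIR403, MIR2936, MIR419, MIR156f and MIR866). The shares of 0.507% and 0.751% differed by -0.24 points, with an interval of -0.975 to 0.517. MIR156f and MIR157d encode closely related microRNAs that hold back SPL transcription factors and so the change from juvenile to adult growth. The region by MIR156f had a fold of 3.47 in ethylene library 2 and 2.93 in air, and that by MIR157d had 3.40 and 3.92. Long noncoding RNA records were near 9.52% of regions with ethylene library 1 and 10.6% of those with ethylene library 2, a difference of -1.08 points (-3.59 to 1.49).

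**Figure D5:**
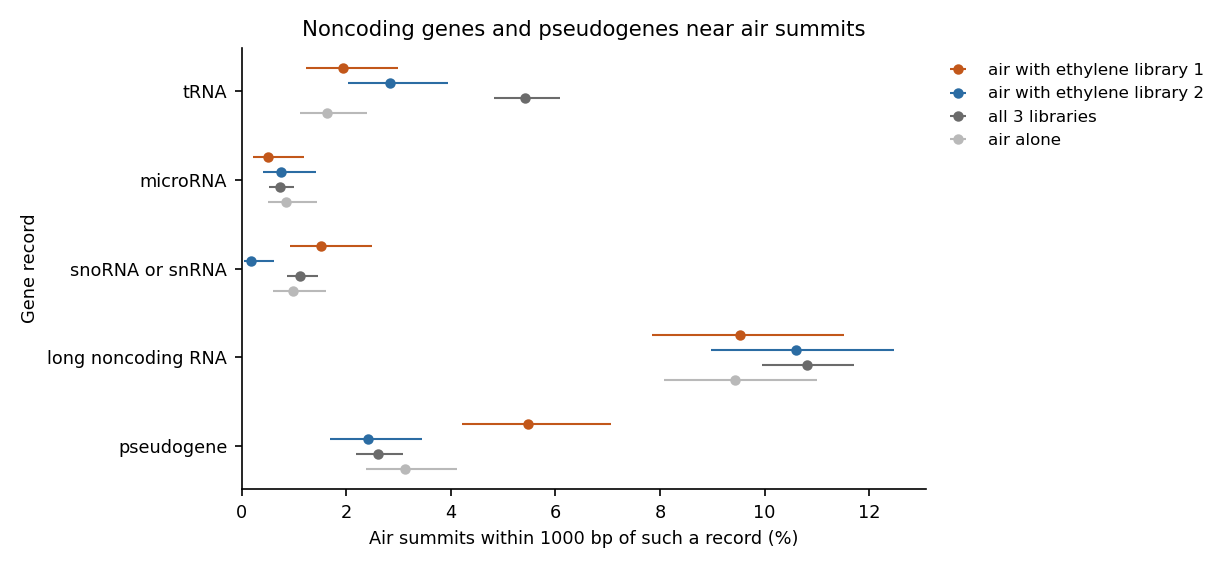
Share of air summits within 1000 bp of each kind of gene record (horizontal axis, %) for the 2 member classes, regions of all 3 libraries and regions of air alone; points are shares and lines 95% Wilson intervals over regions. Small nucleolar and small nuclear RNA genes stand at 1.52% with ethylene library 1 and 0.167% with ethylene library 2, and tRNA genes at 5.42% in regions of all 3 libraries.

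A coding gene was counted as near a region when the ethylene or air summit fell in its window, which reached 1000 bp outward and 200 bp inward from each end of the gene. Strand was not used, so the start and the end of a gene are not told apart. By this measure 1326 of 27444 coding genes (4.83%) were near a region with ethylene library 1 and 1353 (4.93%) near a region with ethylene library 2, or 2628 (9.58%) near either. Both sub-classes were near 51 genes, 3.85% of the genes of ethylene library 1 regions and 3.77% of those of ethylene library 2 regions. Whole lists reached 36.3% of coding genes in ethylene library 1, 36.4% in ethylene library 2 and 33.9% in air. At least 1 coding gene was near 848 regions (85.9%) with ethylene library 1 and near 932 (77.8%) with ethylene library 2.

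A region that lacks a library does not mean that its gene lacks it. A summit of the missing ethylene library lay elsewhere in the window of 344 (25.9%) of the genes near ethylene library 1 regions and of 382 (28.2%) of those near ethylene library 2 regions. Both shares were below those of all coding genes. Of all 27444 coding genes, 36.4% had a summit of ethylene library 2 in the window and 36.3% a summit of ethylene library 1. The rule itself leaves the missing library out of the member region, and these differences were not tested. Of the 51 genes near both sub-classes, 48 were near no region of all 3 libraries, so their windows held all 3 libraries only through separate regions.

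The 10 strongest regions with ethylene library 1, by the sum of fold ranks in both lists, had folds of 5.42 to 8.83 in ethylene library 1 and 4.22 to 7.35 in air. The fold was higher in ethylene library 1 in 10 of 10, and 8 of 10 had summits at most 10 bp apart. The median fold of the whole list was also higher in ethylene library 1 (3.99) than in air (3.11). The top region, chr3:19219444-19220367, lay by G4, which encodes chlorophyll synthase, and SAC8, a phosphoinositide phosphatase gene. It had 125 tags in ethylene library 1 and 229 in air, at a fold of 8.83 and 7.35 and a score of 101 and 60.6. A peak of ethylene library 2 lay 66 bp from the region, and a summit of that library was in the windows of both genes. Next came AT5G24060 and AT5G24070 (fold 7.86 in ethylene library 1 and 5.80 in air), AT4G00960 (7.93 and 5.35), AT2G22805 (7.25 and 5.48) and TPC1, a vacuolar cation channel gene, with AT4G03565 (6.47 and 5.32). The purine permease gene ATPUP13 (6.46 and 4.22) and AT4G14805 with AT4G14810 (5.42 and 4.87) followed, and 3 regions had no coding gene in reach. All 10 had more than 0.3 tags per bp in ethylene library 1, so the strongest members of this sub-class came from its dense group.

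The 10 strongest regions with ethylene library 2 had lower ethylene folds, 4.55 to 5.57 in ethylene library 2, and 4.16 to 9.29 in air. None had more than 0.3 tags per bp in ethylene library 2, and 6 had no coding gene in reach, beside 3 of the 10 with ethylene library 1. AT4G34760 came first (chr4:16582744-16583361), with 142 tags in ethylene library 2 and 163 in air, a fold of 4.88 and 5.27 and a score of 209 and 200.1. SGR5, a zinc finger gene needed for shoot gravitropism, had folds of 4.89 and 4.47 with the summit 4 bp outside the gene. AGL93, a MADS-box gene, with AT5G26960 had 4.86 and 4.39. Those 6 regions included chr4:10715709-10716387, with 146 tags in ethylene library 2 and 172 in air.

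AT4G36090 stood apart within that sub-class. Its air peak (chr4:17078933-17081082) had the highest fold of the whole air list, and its ethylene peak covered 1 end of it. The fold was 4.55 in ethylene library 2 and 9.29 in air, the score 137 and 2102, and the tags 93 and 797. The summits lay 1717 bp apart, so the region holds a strong air peak and a small ethylene peak rather than a shared summit, and ethylene library 1 had no peak within 11064 bp. AT3G09250, the longest region of the sub-class at 3071 bp, was similar, with 251 tags and a score of 235 in ethylene library 2, and 948 tags and a score of 1783 in air. These were the only regions of the sub-class above 0.3 tags per bp in air.

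Gene lists for ethylene, other hormones, light, the clock, wall growth and housekeeping held 193 coding genes in 10 lists. Of these, 23 (11.9%) were near a member, beside 9.58% of all coding genes. In 9 of the 23 the missing ethylene library had another summit in the window. Among all genes near a sub-class this held for 25.9% with ethylene library 1 and 28.2% with ethylene library 2. The lists were drawn up with earlier results of these data known, and their counts are descriptions.

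The ethylene lists gave 3 of these genes. None of the 17 ethylene signalling genes was near a member, beside 9.58% of all coding genes, and a list of 17 is too short to set 0 apart from that share. A summit of ethylene library 1 lay in the window of 10 of them, of ethylene library 2 in 10 and of air in 6. Whole lists reached 36.3%, 36.4% and 33.9% of all coding genes in that order. Of 20 ethylene response genes, 1 (5%) was near a member. This was EDF4, a repressor gene of the RAV family, with 79 tags in ethylene library 1 and 208 in air, a fold of 3.88 and 2.75 and summits 503 bp apart. A region of all 3 libraries lay in the same window. Of 14 ethylene biosynthesis genes, the ACC oxidase genes ACO4 and ACO1, whose products make ethylene from its precursor, were near regions with ethylene library 2, which is 14.3% of that list beside 9.58% of all coding genes near either sub-class. ACO4 had 83 tags in ethylene library 2 and 102 in air at a fold of 3.36 and 3.33, and a peak of ethylene library 1 lay 40 bp from the region. ACO1 had 146 and 154 tags at a fold of 2.78 and 2.80.

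Of 20 clock genes, 4 were near regions with ethylene library 1 and 0 near regions with ethylene library 2, beside 4.83% and 4.93% of all coding genes, and the difference between the sub-classes was not tested. PRR9, which represses morning clock genes, had 99 tags in ethylene library 1 and 329 in air, at a fold of 4.15 and 3.40. GI, a flowering and clock regulator, had 53 and 96 tags, RVE1, which links the clock to auxin, 59 and 120, and RVE4, a MYB-like clock factor, 78 and 141. At GI, RVE1 and RVE4 a region of all 3 libraries lay in the same window, so PRR9 was the only 1 of the 4 without a summit of ethylene library 2.

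Light genes were near both sub-classes, with 2 of 23 (8.70%) each, beside 4.83% and 4.93% of all coding genes. The difference from these shares was not tested. With ethylene library 1 these were BBX24, a B-box light regulator, with a score of 70.2 in ethylene library 1 and 291.5 in air and strongest peaks that shared 26 bp of a 2533 bp region, and CRY1, the blue-light receptor, with 53.7 and 114. With ethylene library 2 they were DET1, a repressor of light growth, with 97.6 and 57.4, and PHYA, the far-red receptor, with 93.4 and 68.5. None of the 4 had a summit of the missing library in its window.

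Gibberellin and brassinosteroid genes were also divided, with 2 of 22 (9.09%) in each sub-class, beside 4.83% and 4.93% of all coding genes. That difference was not tested either. GID1C, a gibberellin receptor, had a fold of 4.85 in ethylene library 1 and 2.84 in air, and CPD, a brassinosteroid synthesis enzyme, had 4.16 and 2.62. RGL3, a DELLA growth repressor, had 4.43 in ethylene library 2 and 3.17 in air, and DWF4, which catalyses a limiting step of brassinosteroid synthesis, had 3.72 and 2.51. All 4 had the higher fold in their ethylene library, and the median folds of the whole ethylene lists were above that of air as well.

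The remaining lists gave 1 or 2 genes a sub-class at most, beside 4.83% and 4.93% of all coding genes near the 2 sub-classes. In each sub-class these were 3.45% of the auxin list, 4.17% of the abscisic acid, cold and drought list and 8.33% of the housekeeping list. The wall list had 16.7% with ethylene library 2 and 0 with ethylene library 1. The auxin carrier gene LAX2 had a fold of 3.95 in ethylene library 1 and 3.36 in air, and the auxin receptor gene AFB1 had 3.65 in ethylene library 2 and 3.11 in air, from 29 auxin genes. Of 24 abscisic acid, cold and drought genes, the receptor gene PYL4 had 2.88 in ethylene library 1 and 3.33 in air, and the bZIP factor gene ABF4 had 3.14 in ethylene library 2 and 2.47 in air. Of 12 wall genes, CSI1, which ties cellulose synthase to microtubules, had 4.04 in ethylene library 2 and 3.69 in air, and EXPA8, an expansin that loosens walls, had 3.60 and 3.52. Of 12 housekeeping genes, the actin gene ACT8 had 3.38 in ethylene library 1 and 3.31 in air and ACT7 had 2.88 in ethylene library 2 and 3.46 in air. At both actin genes a region of all 3 libraries shared the window.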

How the data were processed

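The submitters' processing notes name BWA and the build TAIR10. Per the file headers, MACS 1.4.2 called each ChIP library separately against its treatment's input at a p cutoff of 1e-05. Both ethylene lists share 1 input. The header run names carry another protein's name, and that of air a replicate label 2; the sample labels were followed. Tags per peak are deposited counts. The score, the fold enrichment (a ratio) and the FDR in percent are the authors' deposited values, and the summit height is a deposited signal.

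Regions, their position (the strongest air summit) and all shares were computed with Python 3.11.15, numpy 2.4.6, pandas 2.3.3 and scipy 1.17.1. Figures were drawn with matplotlib 3.10.9. Shares carry Wilson intervals and their differences Newcombe intervals, at 95%. A summit was assigned to a coding gene, to 1000 bp outside one, to another gene record, or farther, in that order. Gene names and positions came from a RefSeq table of TAIR10.1 with 37899 nuclear records, without strand. As a check, member air summits were moved in steps of 100 bp up to 2000 bp either way, and the unshifted summits had the smallest share inside coding genes (40.5%). No sequence was used here. Class building and intervals were tested on simulated data.

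Members and lists were chosen with earlier results of these data known. All 193 list entries matched. Named were the 10 members of each sub-class ranked best by summed fold ranks, the ethylene list genes near a member, up to 4 such genes of each other list, and the regions of smallest overlap, nearest missing-library peak, greatest length and highest density. Noncoding genes were named outside that rule, after their values were seen.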

Additional observations from a re-analysis of the deposited data

How the results depend on the processing

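Of 181 values recomputed under other settings for 27 results, 149 stayed the same. Some of these 149 could not change, since the share inside coding genes does not depend on the width of the zone outside them. A change of direction was defined only for the differences between the sub-classes, and 0 of these changed direction. The same meant within 1.5 times for counts and within the main interval for shares and medians. For differences it meant an interval that included or excluded 0 as before. Of 2 differences whose interval then included 0, both concerned the zone beside coding genes (6.29 points at a score of at least 100, 4.05 points with a 2000 bp zone). The cause was not tested. Only the differences inside, beside and farther from coding genes were recomputed, so those for noncoding and pseudogene records were not. At a score of at least 100, pseudogene records were near 4.12% (2.47 to 6.79) of regions with ethylene library 1. With ethylene library 2 the share was 2.32% (1.30 to 4.11), and these intervals overlap.

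At a score of at least 100 there were 340 regions of air with ethylene library 1 and 474 with ethylene library 2, since fewer peaks entered. In this order of sub-classes, 32.4% and 33.1% of summits were inside coding genes and 58.8% and 52.5% beside them, and 469 and 543 coding genes were near. No missing-library peak with a score of at least 100 lay within 1000 bp of 92.9% and 87.6% of regions. With all peaks the shares were 84.3% and 79.5%. Weaker peaks of the missing library had been left out at that score, also from inside regions, so these shares are not a like comparison. The members' median density over that of the whole list was then 0.992 and 0.986 for the ethylene peaks (0.977 and 0.963 with all peaks) and 0.978 and 0.975 for the air peaks (0.968 and 0.948). With lists of equal length, 86.6% of regions with ethylene library 1 had no peak of the shortened missing-library list within 1000 bp. The air ratio was then 0.956 with ethylene library 2. With peaks up to 500 bp apart joined, 94.7% and 90.5% had no missing-library peak within 1000 bp, where joining itself left none within 500 bp.

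A zone of 500 bp put 44.3% and 35.5% beside coding genes and 13.3% and 20.8% farther, and a zone of 2000 bp put 56.6% and 52.6% beside and 2.53% and 5.01% farther. Summit height in place of tags per bp gave ratios of 1 for ethylene library 1 peaks, and 0.938 and 0.906 for air peaks of the sub-classes with ethylene library 1 and 2. Without ethylene replicate 1, 6053 regions joined air and ethylene library 2 (6048 with it). Without ethylene replicate 2, 5849 joined air and ethylene library 1 (5837 with it). No paired analysis was possible because the air title carries no replicate number and the results come from no test over samples.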
